A study of Mus musculus with 14 samples.

Results

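The insulin-like growth factor (IGF) system was described through 10 of the 41934 genes listed for fetal mouse brain, chosen by gene symbol. The 10 genes are the ligand gene Igf1, the receptor gene Igf1r, the binding-protein genes Igfbp2, Igfbp3, Igfbp4, Igfbp5, Igfbp6 and Igfbp7, the related gene Igfbpl1 and the adaptor gene Irs1. Each of the 10 symbols belonged to 1 row at each age, so all 10 members are accounted for. RNA was sequenced from whole brains of 14 individual male fetuses on a C57BL/6J background, littermates from matings of heterozygotes for the Dio3 mutation. At E13.5, the earlier embryonic day, there were 4 wild-type (Dio3+/+) and 2 mutant (Dio3-/-) fetuses. The later day, E18.5, had 3 wild-type and 5 mutant fetuses. Dio3 encodes the type 3 deiodinase, an enzyme that clears thyroid hormone, and the mutation inactivates the enzyme in the whole animal rather than in the brain alone. The value used here is the authors' mean normalized count, a single mean per gene and age over the fetuses of both genotypes. No value here compares Dio3-/- with Dio3+/+ brains, no spread between fetuses can be given, and no test was made, so differences between ages or genes are descriptions.

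IGF1 is a secreted peptide that binds the IGF1 receptor, a tyrosine kinase at the cell surface, and the activated receptor recruits insulin receptor substrates that pass the signal to the PI3K-AKT pathway. Most IGF in tissue fluid is held by IGF-binding proteins, which can keep it from the receptor or carry it to cells, and which are cut by proteases that release it. In the developing brain the pathway is known for promoting the growth, survival and differentiation of neural cells. IGFBP7 and IGFBPL1 are relatives of the binding proteins, of which IGFBP7 binds IGFs weakly.

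The mean normalized counts of all genes summed to 28582629 at E13.5 and 24565726 at E18.5, and the depth of single libraries is unknown. Neuronal markers were abundant in the labelled tissue, with means of 16332 to 58675 over Tubb3, Map2, Stmn2 and Dcx at E13.5 and of 25478 to 66708 at E18.5. Markers of other cell types were also present. In whole-brain RNA, fewer cells of a type and less RNA per cell cannot be told apart.

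Levels of different genes were compared per kilobase of annotated exon. At E13.5 the highest member was Igfbpl1 with a mean normalized count of 2539 per kilobase. It was followed by Igfbp2 at 1685 and Igfbp5 at 1646 per kilobase, which differed from each other by a factor of 1.02. Igfbp4 stood at 843, Igf1r at 811, Irs1 at 422, Igfbp7 at 302, Igfbp3 at 121, Igf1 at 66.3 and Igfbp6 at 3.97 per kilobase. Among the 10 members at E13.5, binding-protein transcripts thus took the first places per kilobase, and the receptor transcript stood over the ligand transcript. At E18.5 the first 3 places were again taken by Igfbp5, Igfbpl1 and Igfbp2, now at 1360, 1244 and 1230 per kilobase. Igfbp7 came next at 461, then Igf1r at 440, Igfbp4 at 378, Irs1 at 344, Igfbp3 at 324, Igf1 at 116 and Igfbp6 at 47.8 per kilobase. Neighbours from Igfbp7 down to Igfbp3 differed by factors of 1.05 to 1.17, and with no spread between fetuses their order is not settled. Nor is the order of the first 3 at E18.5, since with the longest transcript as length Igfbp2 stood at 1738, Igfbpl1 at 1412 and Igfbp5 at 1360 per kilobase.

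**Figure D1:**
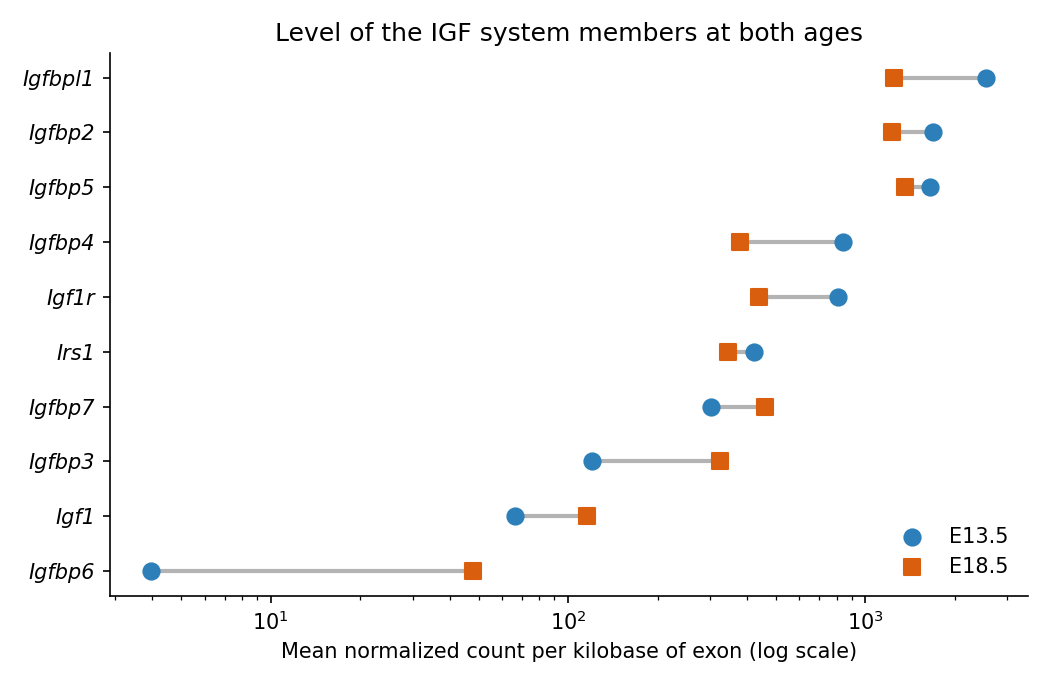
Mean normalized count per kilobase of exon (log axis) of the 10 members at E13.5 (circles) and E18.5 (squares), each point the authors' mean over all fetuses of that age, with a line joining both ages. The levels span from 3.97 per kilobase (Igfbp6, E13.5) to 2539 (Igfbpl1, E13.5), and they lie closer together at E18.5.

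For the ratio of E18.5 to E13.5, the log2 ratio of each gene was centred on the median over the 17794 genes with a mean of at least 10 at both ages, which lay at -0.28. The ages were normalized separately, and Dio3-/- fetuses made up 33.3% of the fetuses at E13.5 and 62.5% at E18.5. The part of age and the part of genotype in a ratio therefore cannot be told apart. Nor do the labels give the sequencing batch of each fetus, so the batches may differ between ages, and their part in a ratio was not tested. With this centring Igf1, Igfbp3, Igfbp6 and Igfbp7 were higher at E18.5, Igf1r, Igfbp4 and Igfbpl1 were lower, and Igfbp2, Igfbp5 and Irs1 lay near the centre, at -0.17, 0.01 and -0.01. Of the 9 members with a mean of at least 10 at both ages, 2 were over 2-fold higher at E18.5 and 0 were over 2-fold lower, against 12.1% and 5.61% of all genes. The count turned with the scaling. Without centring 1 member (Igfbp3) was over 2-fold higher and 2 (Igfbp4 and Igfbpl1) were over 2-fold lower, beside 8.40% and 10.1% of all genes. With equal sums over protein-coding genes 1 member was over 2-fold higher and 0 were over 2-fold lower, beside 10.3% and 6.85% of all genes. The median log2 ratio of these 9 members was -0.01, beside 0 by construction for all genes. Beside these ratios, the 4 neural progenitor markers were all lower at E18.5 (median -1.13) and the 3 choroid plexus markers were all higher (median 1.37). The 6 endothelial and mural markers were split, 3 higher and 3 lower (median 0.08), from Pdgfrb at -0.34 to Rgs5 at 1.46. This even split depended on the centring, since Kdr, at 0.20, was at -0.08 without it. The part of these cell types in the members' ratios was not tested.

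**Figure D2:**
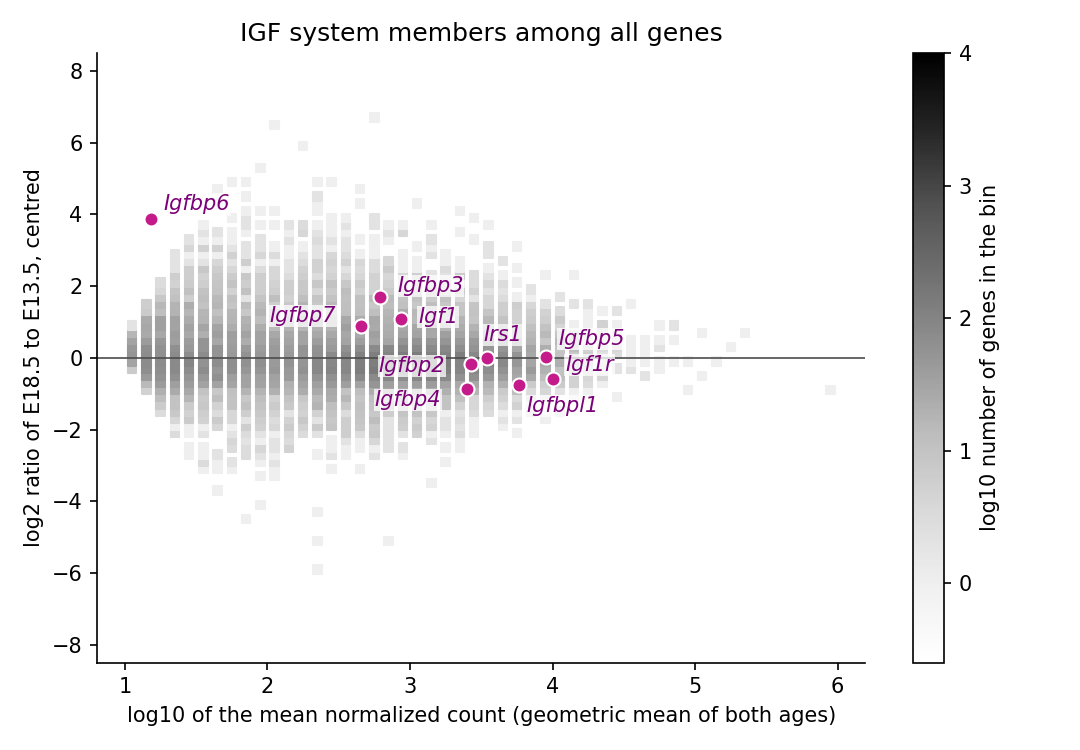
Centred log2 ratio of E18.5 to E13.5 against the log10 mean normalized count for the members (points) and for the 17794 genes with a mean of at least 10 at both ages (grey squares, darker where a bin holds more genes). Igfbp6 at 3.88, Igfbp3 at 1.71 and Igf1 at 1.09 lie highest among the members, and Igfbp4 at -0.87 lies lowest. Igfbp6 is plotted although its E13.5 mean is under 10.

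Igf1 (ENSMUSG00000020053.18; GRCm38 chr10:87858265-87937042, + strand), the gene of the ligand, had a mean normalized count of 656 at E13.5 and of 1151 at E18.5. The centred ratio was 2.13-fold, a log2 ratio of 1.09 at percentile 89.5 of all genes. By its count Igf1 ranked at percentile 75.7 of the genes above 0 at E13.5 and at percentile 84.9 at E18.5. It was a moderately expressed gene at both ages and the second lowest member per kilobase. Igf2, the other IGF ligand gene, had means of 1135 and 828, a centred log2 ratio of -0.17. Per kilobase, Igf2 was 2.99 times Igf1 at E13.5 and 1.25 times Igf1 at E18.5, so the gap between the ligand transcripts was smaller at the later age. With the longest transcript as length, Igf2 and Igf1 stood at 240 and 93.1 per kilobase at E13.5 and at 175 and 163 at E18.5. With no spread between fetuses, their order at E18.5 is not settled. Exon bases shared with other genes were looked for in the members only, not in Igf2. The insulin genes were scarcely detected: Ins1 was listed at 0 at both ages and Ins2 had means of 1.42 and 2.24.

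Igf1r (ENSMUSG00000005533.10; GRCm38 chr7:67952827-68233668, + strand), the gene of the receptor tyrosine kinase that IGF1 activates, had means of 13617 and 7390. It was at percentile 99.4 by count at E13.5 and at percentile 98.4 at E18.5, with an exon length of 16791 bases. The centred log2 ratio was -0.60, a level 1.51-fold lower at E18.5. With Igf1 higher and Igf1r lower, the ratio of Igf1 to Igf1r per kilobase stood at 0.0817 at E13.5 and at 0.264 at E18.5, a 3.23-fold difference. Both genes of such a ratio come from the same libraries, so it needs no scaling between ages. The pairs of genes set against each other here were chosen after their values were seen.

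The 3 related receptor genes were also lower at E18.5 after centring. Igf2r, whose product takes IGF2 into the cell for breakdown, had means of 5269 and 2658, a log2 ratio of -0.70. Insr, the insulin receptor gene, had means of 5557 and 3975, a log2 ratio of -0.20, and Insrr, the gene of an insulin receptor relative, had means of 80.5 and 31.5, a log2 ratio of -1.07. Igf1r was 2.01 times Insr per kilobase at E13.5 and 1.52 times at E18.5. Igf2r stood at 0.698 of Igf1r at E13.5 and at 0.649 at E18.5, so the balance of these receptors differed little between ages beside that of ligand and receptor.

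The binding-protein transcripts were considered as a pool, the sum per kilobase of Igfbp1 to Igfbp7 and Igfbpl1 within an age. The pool summed to 7141 per kilobase at E13.5 and to 5047 at E18.5, a centred log2 ratio of -0.22. The 3 most abundant members made up 82.2% of the pool at E13.5 and 76.0% at E18.5, and the first 4 made up 94.0% and 85.1%. The pool was therefore spread over more members at the later age. Igfbpl1 had 35.6% of the pool at E13.5 and 24.7% at E18.5, and Igfbp4 had 11.8% and 7.48%. The shares that were larger at E18.5 were those of Igfbp7 (4.23% and 9.14%), Igfbp3 (1.69% and 6.42%), Igfbp5 (23.1% and 26.9%) and Igfbp6 (0.0556% and 0.948%), while Igfbp2 had 23.6% and 24.4%. With Igfbpl1 left out of the pool, Igfbp5 had 35.8% at both ages and Igfbp2 had 36.6% and 32.3%, so the larger share of Igfbp5 rested on that of Igfbpl1. By mean normalized count, not divided by length, Igfbp5 had the largest share at both ages, 38.4% and 45.9%. Igfbp1, which is known as a liver product, held 0.0166% and 0.0504%.

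**Figure D3:**
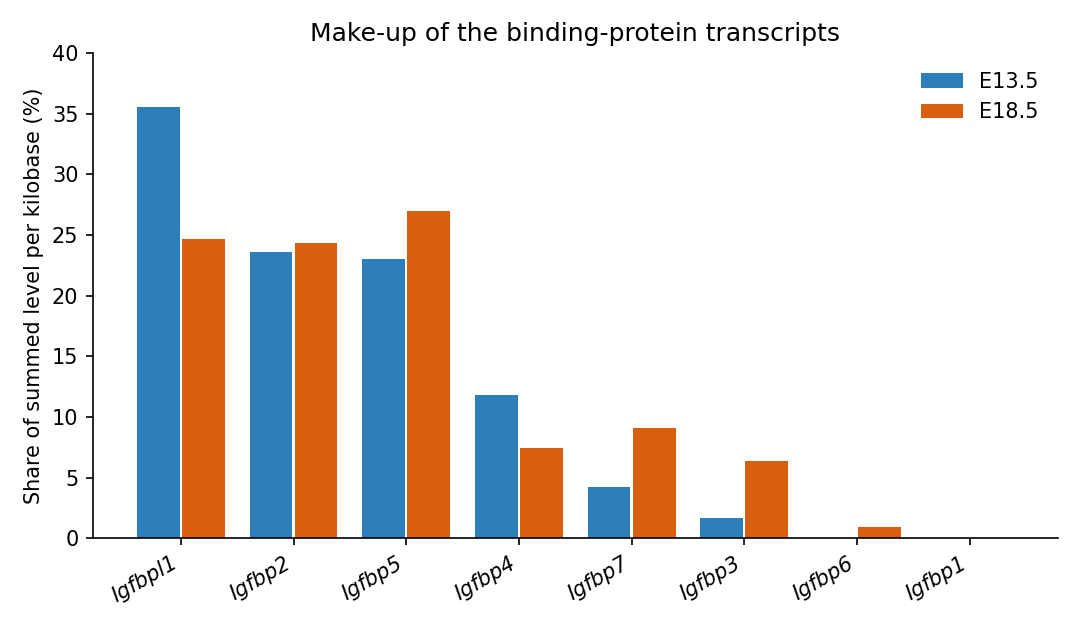
Share (%) of each gene in the summed level per kilobase of the binding-protein transcripts at E13.5 and E18.5, from the authors' means and with no error available. Igfbpl1 has the largest bar at E13.5 (35.6%), while Igfbp5 (26.9%), Igfbpl1 (24.7%) and Igfbp2 (24.4%) are close at E18.5, in an order that depends on the length used. The shares of Igfbp7, Igfbp3 and Igfbp6 are larger at E18.5.

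Igfbp6 (ENSMUSG00000023046.6; GRCm38 chr15:102144362-102149511, + strand), which encodes a binding protein with a preference for IGF2, had a mean of 4.41 at E13.5 and of 53.2 at E18.5. It was the member with the highest ratio, 14.7-fold after centring or a log2 ratio of 3.88, higher than 99.9% of the genes with a mean of at least 10 at both ages. Its E13.5 mean was itself under 10, and with a pseudocount of 10 added to both means the log2 ratio was 2.42. Igfbp6 stayed the lowest member at both ages, at percentiles 32.7 and 57.3 of the genes above 0. A mean over 8 fetuses does not show whether the E18.5 level is shared by all of them.

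Igfbp3 (ENSMUSG00000020427.11; GRCm38 chr11:7206086-7213923, - strand), whose product is the main IGF carrier of serum, had means of 377 and 1013. The centred ratio was 3.27-fold, a log2 ratio of 1.71 at percentile 95.4. Igfbp4 (ENSMUSG00000017493.12; GRCm38 chr11:99041244-99054392, + strand), whose product is a substrate of pappalysin proteases, lay at the other end with means of 3722 and 1668. It was 1.83-fold lower at E18.5 after centring, a log2 ratio of -0.87 at percentile 7.24. Igfbp3 stood at 0.143 of Igfbp4 per kilobase at E13.5 and at 0.857 at E18.5, a 5.99-fold difference in their ratio. These 2 binding proteins thus lay far apart in the younger brains and close together in the older ones.

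Igfbp7 (ENSMUSG00000036256.13; GRCm38 chr5:77349240-77408041, - strand) had means of 365 and 557, a log2 ratio of 0.89 at percentile 86.0. Igfbp7 shares 85 exon bases, 7.03% of its exon length, with Polr2b on the opposite strand, and reads on such bases are left out or cannot be assigned when strand is not used. Igfbpl1 (ENSMUSG00000035551.6; GRCm38 chr4:45809468-45826923, - strand) had means of 8252 and 4043. Its log2 ratio was -0.75, a level 1.68-fold lower at E18.5, at percentile 9.46. Igfbpl1 was 1.54 times Igfbp5 per kilobase at E13.5 and 0.915 times Igfbp5 at E18.5. The order of the 2 genes at E18.5 depended on the length used, since the ratio was 1.04 with the longest transcript as length.

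Igfbp2 and Igfbp5 lie as neighbours on mouse chromosome 1, at chr1:72824503-72852474 on the + strand (ENSMUSG00000039323.18) and chr1:72857932-72874884 on the - strand (ENSMUSG00000026185.8). Igfbp2 had means of 3112 and 2272, a centred log2 ratio of -0.17 at percentile 37.7. Igfbp5 had means of 9887 and 8167 and a centred log2 ratio of 0.01, at percentile 50.5. The 2 neighbours differed by a factor of 1.02 per kilobase at E13.5, and Igfbp2 was 0.904 of Igfbp5 at E18.5. With the longest transcript as length, Igfbp2 was 1.45 times Igfbp5 at E13.5 and 1.28 times at E18.5. Without centring the log2 ratio of Igfbp5 was -0.28, the shift of all genes, so no direction is given for it.

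Irs1 (ENSMUSG00000055980.2; GRCm38 chr1:82233101-82291416, - strand), the gene of an adaptor that is phosphorylated by the IGF1 and insulin receptors, had means of 3855 and 3147. Its centred log2 ratio was -0.01 at percentile 49.4, and the sign turned with the genes used for centring. Of its 9144 exon bases, 2822 (30.9%) overlap the opposite-strand gene Gm9747, which was listed at 0 at both ages, and counting in union mode leaves out reads on shared bases. The level of Irs1 per kilobase may be understated for this reason, and the amount was not tested. Irs1 stood at 0.971 of Irs2, the gene of a second substrate, at E13.5 and at 0.870 at E18.5. Since Irs1 may be understated, the order of Irs1 and Irs2 is not settled. Irs1 was 7.81 times Irs4 per kilobase at E13.5 and 5.10 times at E18.5.

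Promoters are shown as the 250 bases before the RefSeq start (GRCm38.p6) for Igfbp6, Igfbp3 and Igfbp4, the binding-protein genes with the highest and lowest ratios, and for the receptor gene Igf1r, whose window holds a receptor half-site. RefSeq promoter entries were found for 9 of the 10 members, with 2 starts for Igfbp2 and so 10 windows. Motifs were searched as exact letters on both strands, and capitals mark their matches, which read as the reverse complement where the motif lies on the opposite strand. The letters TATAAA stand for the core promoter element of that name. The letters GGGCGG are the box bound by Sp1 factors. The letters AGGTCA are the half-site that thyroid hormone receptors share with other nuclear receptors. Distances run from the first printed base of a match to the start. Igfbp6 (chr15:102143936-102144185, + strand) has a TATAAA match on the opposite strand, 148 bases before the start.
Igfbp6: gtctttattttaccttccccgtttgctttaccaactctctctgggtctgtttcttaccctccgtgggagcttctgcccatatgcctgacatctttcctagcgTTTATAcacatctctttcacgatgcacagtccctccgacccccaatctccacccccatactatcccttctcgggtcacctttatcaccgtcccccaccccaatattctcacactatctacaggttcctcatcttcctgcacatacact
Igfbp3 (chr11:7213924-7214173, - strand) holds none of these matches.
Igfbp3: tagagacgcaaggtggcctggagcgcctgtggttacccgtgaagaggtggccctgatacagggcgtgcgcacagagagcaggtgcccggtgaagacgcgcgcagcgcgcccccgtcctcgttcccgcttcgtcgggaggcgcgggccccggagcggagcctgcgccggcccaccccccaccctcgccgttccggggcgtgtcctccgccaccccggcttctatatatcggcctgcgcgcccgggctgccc
Igfbp4 (chr11:99040994-99041243, + strand) has a TATAAA match 28 bases before the start.
Igfbp4: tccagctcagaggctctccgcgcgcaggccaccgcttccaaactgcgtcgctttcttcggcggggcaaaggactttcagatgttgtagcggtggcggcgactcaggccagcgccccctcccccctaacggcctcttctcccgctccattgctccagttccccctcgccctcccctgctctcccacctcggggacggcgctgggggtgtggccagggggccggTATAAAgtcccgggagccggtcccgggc
Igf1r (chr7:67952007-67952256, + strand) has an AGGTCA match on the opposite strand 86 bases before the start, and GGGCGG matches 43 and 26 bases before it.
Igf1r: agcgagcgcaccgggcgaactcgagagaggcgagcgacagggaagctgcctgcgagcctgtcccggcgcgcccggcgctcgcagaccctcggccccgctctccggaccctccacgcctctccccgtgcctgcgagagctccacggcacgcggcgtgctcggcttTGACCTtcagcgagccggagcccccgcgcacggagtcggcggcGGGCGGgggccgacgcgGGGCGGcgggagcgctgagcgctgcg

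Over the members' windows, AGGTCA was present in 2 of 10, those of Igf1 and Igf1r, and in 14.0% of the 32851 mouse promoter windows of the same length. TATAAA was present in 2 of 10 windows, against 12.4% of all, and GGGCGG in 4 of 10, against 32.7%. The repeat of AGGTCA with 4 bases between, the arrangement known for thyroid hormone receptors, was in 0 of 10 windows and in 0.0152% of all. The share of G and C ran from 49.6% (Igfbp6) to 77.6% (Igf1r), beside a median of 52.4% over all promoters. Igfbp6, with 49.6%, has 7 CpG dinucleotides in its window, and Igfbp3, also higher at E18.5, has 73.2% and 32. These matches are letters in a window and say nothing of binding. The windows of Igf1 and Igfbp5 and a window of Igfbp2 overlap annotated exons of the same gene. RefSeq starts need not match the gene spans given here: the Igf1r window ends at 67952256 and the Igf1r span begins at 67952827. Likewise the Igfbp6 window ends at 102144185 and the Igfbp6 span begins at 102144362.

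The other genes of the IGF system were taken as 32 genes by role, of which 27 had a mean of at least 10 at both ages. Of these 27, 10 were higher and 17 lower at E18.5 after centring, with a median log2 ratio of -0.11. Some of these ratios lay near 0, so the split depended on the centring. Over 2-fold higher were 4 and over 2-fold lower 5, beside 12.1% and 5.61% of all genes. Without centring the numbers were 2 and 6, beside 8.40% and 10.1% of all genes. The 3 genes for proteins that bind Igf2 mRNA were all lower. Igf2bp1 had means of 5780 and 644, a log2 ratio of -2.88, and Igf2bp2 had means of 2758 and 584, a log2 ratio of -1.96. The third, Igf2bp3, had means of 2187 and 504, a log2 ratio of -1.83, and was named after its values were seen. Igf2bp1 and Igf2bp3 are known as oncofetal genes, expressed mainly before birth.

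Among 5 genes for proteases that cut binding proteins and their inhibitors, 3 were higher and 2 lower. Htra1, a secreted serine protease that can cut IGF-binding proteins, had means of 136 and 496, a log2 ratio of 2.15. Pappa2, a pappalysin that cuts IGFBP5 and IGFBP3, had means of 551 and 406, a log2 ratio of -0.16. The stanniocalcin genes Stc1 and Stc2, whose products inhibit the pappalysins, had log2 ratios of 1.03 and 1.60, and were named after their values were seen. Stc1 had means of 197 and 329, and Stc2 had means of 68.9 and 172.

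Of the 4 other adaptor genes, 2 were higher and 2 lower after centring, and Irs2, at 0.15, was at -0.13 without centring. Grb10, an imprinted gene for an adaptor that dampens insulin and IGF1 receptor signalling, had means of 16876 and 4308, a log2 ratio of -1.69. Of 10 kinases and effectors, 5 were higher and 5 lower, and 1 was over 2-fold higher, beside 12.1% of all genes. That gene was Pik3r1, the regulatory subunit of PI3K, with means of 5060 and 8789 and a log2 ratio of 1.08, or 0.80 without centring. Of these 10 genes, Akt1 had the highest level per kilobase at both ages, 1876 at E13.5 and 1427 at E18.5.

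Igfals, the gene of the acid-labile subunit that joins IGF and IGFBP3 in serum, had means of 6.20 and 4.40. Gh, the growth hormone gene of the pituitary, was listed at 0 at E13.5 and had a mean of 963 at E18.5. Ghr, its receptor gene, had means of 459 and 300, a log2 ratio of -0.33. The targeted gene Dio3 had means of 99.02 and 129.4, a log2 ratio of 0.67, and the mean over both genotypes checks no label. The paper reported by qPCR that Dio3 mRNA fell between these ages in wild-type brains and was higher in Dio3-/- brains. With Dio3-/- fetuses at 33.3% of E13.5 and 62.5% of E18.5, no direction with age is given for Dio3.

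**Figure D4:**
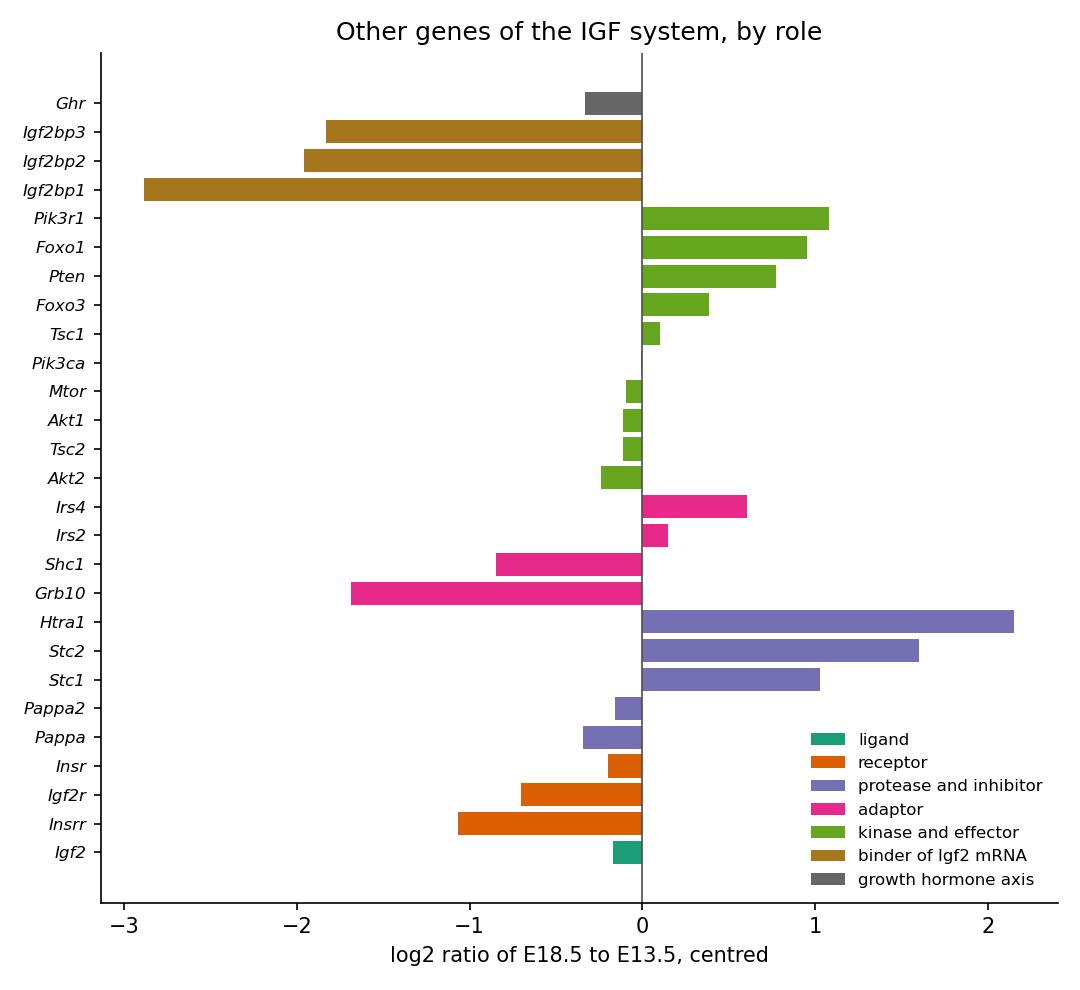
Centred log2 ratio of E18.5 to E13.5 for 27 other genes of the IGF system with a mean of at least 10 at both ages, coloured by role. The binders of Igf2 mRNA (-2.88 to -1.83) lie lowest together with Grb10 (-1.69), and Htra1 (2.15) and Stc2 (1.60) lie highest.

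Markers of other cell types also differed between ages. The 4 neural progenitor markers, with means of 1087 to 13679 at E13.5 and of 336 to 2548 at E18.5, were all lower, with a median log2 ratio of -1.13. The 8 leptomeningeal markers were all detected, with means of 161 to 10662 at E13.5 and of 218 to 4986 at E18.5. Of them 3 were higher and 5 lower, from -2.01 for Lum to 2.05 for Slc6a13, so they did not move one way. The 6 endothelial and mural markers had means of 636 to 2543 and of 723 to 4136. After centring 3 were higher and 3 lower, with a median of 0.08 and the highest ratio for Rgs5 at 1.46. Kdr, at 0.20, was at -0.08 without centring. The 3 choroid plexus markers were all higher, with means of 64.8 to 4030 and of 131 to 12817 and a median of 1.37. The 3 microglial markers, with means of 24.8 to 620 and of 21.9 to 675, were at 0.10 to 0.41 after centring. Without centring Csf1r was at 0.12, Cx3cr1 at 0.05 and Aif1 at -0.18, so no direction is given for Aif1.

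The listed markers of cartilage, skeletal muscle, liver and red cells, apart from the muscle actin gene Acta1, had lower means at E18.5 than at E13.5. The pituitary gene Gh, not among these lists, went the other way, from 0 at E13.5 to a mean of 963 at E18.5. Of the 3 cartilage markers, with means of 25.7 to 5728 at E13.5 and of 5.01 to 424 at E18.5, the 2 with a mean of at least 10 at both ages were lower, Col2a1 by the most with a log2 ratio of -3.47. The skeletal muscle markers had means of 10.7 to 132 and of 1.15 to 109, the liver markers means of 6.73 to 101 and of 0.903 to 63.6. The embryonic globin genes Hbb-y and Hba-x, markers of primitive red cells, had means of 21476 and 5014 at E13.5 and of 7.95 and 5.03 at E18.5. No defining marker of these lists was at 0 at either age.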

How the data were processed

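Total RNA of whole fetal brains was depleted of ribosomal RNA and sequenced in separate batches. The authors trimmed reads with cutadapt 3.1, aligned them to GRCm38 with STAR 2.5.3a, counted them with HTSeq in union mode without strand on GENCODE VM22, adjusted the counts for batch with ComBat-seq and fitted DESeq2 1.30.1 within each age. The adjustment can change levels, and its effect was not tested. The deposited mean normalized count is a signal, the counts scaled by library size factors and then averaged by the authors over each age's libraries. The deposited tables also hold the authors' comparison of genotypes (fold changes, standard errors, test statistics and p-values), which was not used.

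Exon lengths were taken from GENCODE vM21 (GRCm38), in which 41897 gene IDs matched and 37 did not. Ratios were centred on genes with a mean of at least 10 at both ages. Computations used Python 3.11.15, numpy 2.4.6 and pandas 2.3.3. Centring was tested on simulated data in which few genes changed, as likely up as down. In the data 12.1% of genes were over 2-fold higher and 5.61% over 2-fold lower, a case which that simulation does not cover. Members and lists were chosen with earlier results of these data known. The text names all 10 members and, of each other role, the genes with the highest level per kilobase or the largest absolute log2 ratio. Ins1, Irs2, Irs4, Igf2bp3, Stc1 and Stc2 were named outside this rule. An item of the other roles is not reported here.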

Additional observations from a re-analysis of the deposited data

How the results depend on the processing

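The ratios were recomputed without centring, with equal sums over protein-coding genes (a shift of -0.18), centred on the 11955 genes with a mean of at least 100 (a shift of -0.31) and with a pseudocount of 10. The sign was the same under these 4 alternatives for 8 members. Igfbp5, at 0.01 in the report, was at -0.28 without centring and at -0.094 with equal sums, and Irs1, at -0.01, was at 0.014 when centred on genes with a mean of at least 100. The number of members with a ratio above 0 was 5 as centred in the report, with Igfbp5 among them, 4 without centring, 4 with equal sums, 6 when centred on the higher means and 5 with the pseudocount. Of the members, 6 at E13.5 and 5 at E18.5 were at or above percentile 90 of the genes above 0. The latter number was 3 when ranked among genes with a mean of at least 10, a set without the lowest genes. With the longest transcript as length, the first 5 members of each age were those of the report, but in another order, with Igfbp2 first at E18.5 and Igf1r above Igfbp4 at E13.5. Binding proteins over 10% of the pool numbered 4 at E13.5 and 3 at E18.5, and 3 at both ages without Igfbpl1.

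No paired analysis was possible because the values are means over all fetuses of an age. For the same reason leaving out single fetuses and any test between genotypes were not run, and no interval can be given. The comparison of protein sequences was not run.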
